A study of Mus musculus with 12 samples.

Results

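The 36 chemokine ligand genes examined here were taken by name from a fixed list, and all 36 were found among the 56860 genes of the count table. RNA had been sequenced from 12 primary mammary tumours of 3 mouse genotypes, with 4 tumours in each. All tumours arose from the MMTV-PyMT transgene, an oncogene of polyomavirus under a promoter active in mammary epithelium, and were taken at 4.5 months. WT mice carried MMTV-Cre with the oncogene according to the design text, although the strain label of these tumours lists only the oncogene. C3_KO mice carried MMTV-Cre and the C3Tdt allele of complement component C3, and S1pr1_KO mice carried MMTV-Cre and S1pr1fl/fl, a floxed allele of a sphingosine-1-phosphate receptor. The MMTV promoter acts mainly in mammary epithelium, and which cells of a tumour lost the targeted gene was not tested. The labels name no batch or pairing and do not say that tumours came from separate mice, so the p-values below measure the spread between these samples only.

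Chemokines are small secreted proteins that guide leukocytes along gradients by binding G protein-coupled receptors. The family is divided by the spacing of its conserved cysteines into CC ligands (Ccl), CXC ligands (Cxcl), the CX3C ligand Cx3cl1 and the XC ligand Xcl1. Some ligands are inducible in inflammation and attract neutrophils, monocytes or activated T cells, and others are made constitutively and position lymphocytes in lymphoid tissue. Mammary tumours are known to use several of them to recruit macrophages and other myeloid cells.

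Promoter sequence is shown for 5 inducible ligands, all of which held the motif searched for. Of these, 4 were high together in a single tumour, C3_KO replicate 3, and the fifth belongs to the interferon-inducible group described below. Cxcl5, Ppbp, Ccl2, Ccl3 and Ccl25 were also highest in that tumour and are not shown. Each sequence is the 250 bases before the RefSeq start site (build GRCm38.p6), 5′ to 3′ on the gene's strand, and capitals mark matches to GGGNNNTTCC, a form of the site bound by NF-kB factors, searched on both strands with overlapping matches joined.
Cxcl1: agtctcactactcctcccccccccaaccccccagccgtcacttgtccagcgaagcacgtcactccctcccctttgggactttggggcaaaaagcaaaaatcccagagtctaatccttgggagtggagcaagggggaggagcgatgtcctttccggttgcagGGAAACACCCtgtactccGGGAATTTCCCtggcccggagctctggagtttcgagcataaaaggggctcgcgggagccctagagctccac
Cxcl2: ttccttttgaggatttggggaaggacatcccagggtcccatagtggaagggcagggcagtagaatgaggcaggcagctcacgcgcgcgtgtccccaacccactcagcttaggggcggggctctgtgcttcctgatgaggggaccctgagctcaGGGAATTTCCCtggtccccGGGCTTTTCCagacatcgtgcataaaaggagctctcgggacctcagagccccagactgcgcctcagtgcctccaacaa
Cxcl3: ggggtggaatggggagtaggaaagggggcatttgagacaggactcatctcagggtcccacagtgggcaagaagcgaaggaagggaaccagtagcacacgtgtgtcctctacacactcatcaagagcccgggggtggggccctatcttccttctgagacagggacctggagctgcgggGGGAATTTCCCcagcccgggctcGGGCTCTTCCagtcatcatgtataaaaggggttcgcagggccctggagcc
Ccl20: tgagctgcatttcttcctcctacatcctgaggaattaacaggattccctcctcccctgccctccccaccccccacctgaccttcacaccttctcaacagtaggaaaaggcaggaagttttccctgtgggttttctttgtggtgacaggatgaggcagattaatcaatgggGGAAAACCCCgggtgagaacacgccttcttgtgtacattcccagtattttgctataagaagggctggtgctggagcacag
Cxcl10: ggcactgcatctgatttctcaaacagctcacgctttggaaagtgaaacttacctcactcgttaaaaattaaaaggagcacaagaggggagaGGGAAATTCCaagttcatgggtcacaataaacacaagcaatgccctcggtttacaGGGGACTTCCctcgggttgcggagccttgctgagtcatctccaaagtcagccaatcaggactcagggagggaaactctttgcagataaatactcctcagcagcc

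The windows are Cxcl1 at chr5:90890995-90891244, plus strand, Cxcl2 at chr5:90903649-90903898, plus strand, Cxcl3 at chr5:90785851-90786100, plus strand, Ccl20 at chr1:83116516-83116765, plus strand, and Cxcl10 at chr5:92348890-92349139, minus strand. The Cxcl1, Cxcl2 and Cxcl3 windows each held 2 marked stretches, and all 3 shared the run GGGAATTTCCC, which lay at 71 to 61 bases before the start in Cxcl1, at 97 to 87 in Cxcl2 and at 73 to 63 in Cxcl3. Ccl20 held 1 match, at 80 to 71 bases before its start, and Cxcl10 held 2, the nearer at 104 to 95. The table covers 26 of the 36 genes, with 27 start sites, and 7 of these genes held the motif (7 of 27 windows, or 25.9%). Over all 32851 windows of the same length the motif was present in 4.65%. The other members with a match were Ccl1 and Ccl9. Cxcl5, Ppbp, Ccl2, Ccl3 and Ccl25, also highest in C3_KO replicate 3, were not among the matched genes. The sequences shown were thus picked for their match. Other letters searched in the same windows were also more frequent in the ligands than over all windows. TATAAA, on the gene's strand, was in 37.0% of the 27 windows beside 7.59% of all. TTTCNNTTTC, on either strand, was in 11.1% beside 2.98%. A match describes these letters only.

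Levels of different ligands were compared in FPKM, which corrects counts for gene length and library total. Cxcl14, a constitutively made epithelial chemokine, had the highest median over the 12 tumours at 44.04 FPKM (range 19.97 to 80.9 FPKM). Next came Cx3cl1, the membrane-tethered ligand fractalkine, with 26.6 FPKM. Ccl8, which draws monocytes, had a median of 24.7 FPKM. Cxcl16, a membrane-bound ligand and scavenger receptor, had 17.6 FPKM, and the mucosal chemokine Cxcl17 had 11.4 FPKM. The ranges of these 5 genes overlapped, so neighbours in this order did not part beyond their spread. Cx3cl1 ran from 16.6 to 59.8 FPKM, Ccl8 from 9.85 to 74.6 FPKM, Cxcl16 from 11.7 to 25.1 FPKM and Cxcl17 from 2.45 to 47.4 FPKM. Together the 5 genes made up 46.6 to 77.7% of the summed FPKM of the family in each tumour. The next were Ccl6 at 11.3 FPKM, Ccl5 at 8.54 and Ccl21a at 5.86. Of the 36 genes, 22 had a median of at least 1 FPKM and 14 lay below it. The lowest were Ccl20 at 0.0452, Cxcl11 at 0.0196 and Cxcl3 at 0.00704 FPKM. Every member had a count above 0 in every tumour.

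**Figure D1:**
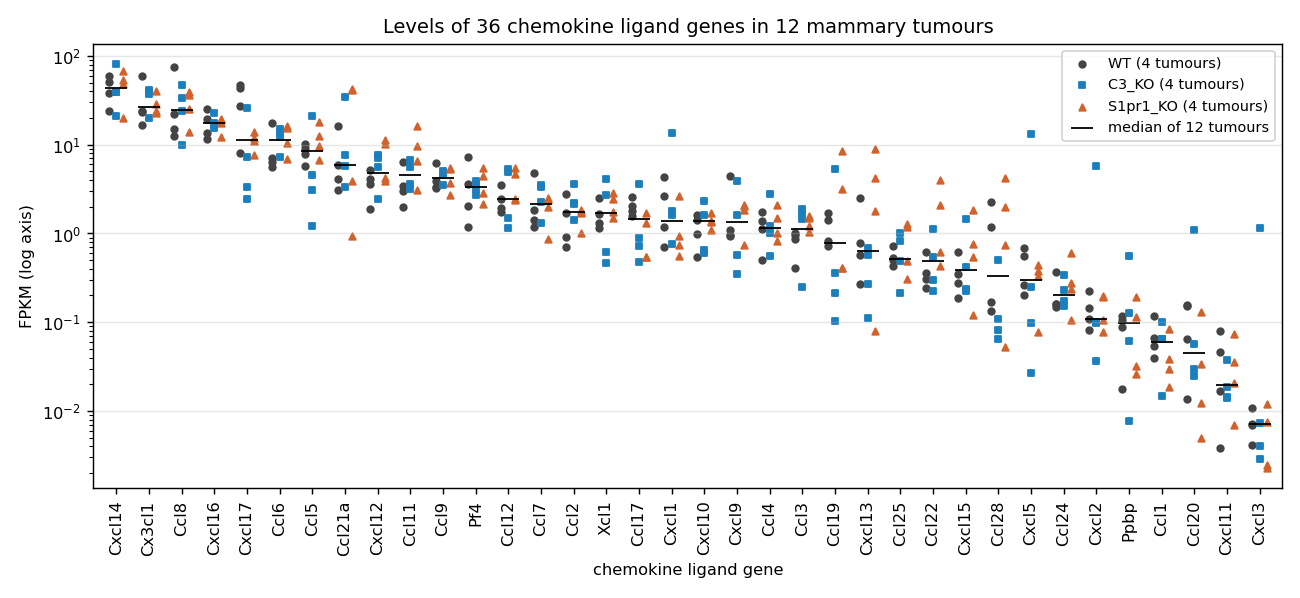
FPKM of each of the 36 chemokine ligand genes (vertical, log axis) in 12 tumours, ordered by the median, with 4 points per genotype and a dash at the median of all 12. Cxcl14, Cx3cl1, Ccl8 and Cxcl16 have the highest medians, while Cxcl2, Cxcl3, Cxcl5 and Ccl20 each have 1 C3_KO tumour far above all others.

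Within genes, levels are given in CPM, counts per 1e6 reads after TMM (trimmed mean of M values) scaling, with tumours always listed as replicates 1 to 4. The summed counts of a library were 230431879 to 484002410. Luminal epithelial markers, 8 genes such as Epcam, Krt8 and Krt18, were present in every tumour and summed to 2558 to 7599 CPM. The mean of C3 was 101 ± 58.2 CPM in WT against 59.7 ± 17.6 CPM in C3_KO (SD, n = 4), at log2 -0.76 (SE 0.49, edgeR adjusted p = 0.765). The mean of S1pr1 was 5.21 ± 2.63 CPM in WT against 4.64 ± 2.35 CPM in S1pr1_KO (SD, n = 4), at log2 -0.17 (SE 0.43, edgeR adjusted p = 0.874). Neither targeted transcript was absent from its knockout tumours. Whether the counted reads cover the deleted part of either gene is not known, and the reason for these levels was not tested. Individual tumours stood apart from the rest of their genotype. Milk protein transcripts summed to 87600 CPM in C3_KO replicate 3 and at most 5946 elsewhere, and skin keratinocyte markers to 1282 against at most 752 CPM. B cell markers summed to 166 and 92.2 CPM in S1pr1_KO replicates 1 and 2 and to at most 15.98 CPM elsewhere. Salivary gland markers summed to 38960 and 1833 CPM in replicates 1 and 4 of S1pr1_KO.

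Across genotypes, no ligand passed the test in any of the 3 comparisons. The fit with edgeR covered 30660 genes, including 35 of the 36 ligands, while Cxcl3 fell below the filter on low counts. In C3_KO against WT, 0 of 35 ligands and 0% of all genes had an adjusted p under 0.05. At an unadjusted p under 0.05 there were 2 of 35 ligands against 6.23% of all genes. In S1pr1_KO against WT, 0 ligands and 0% of all genes passed, and 3 of 35 ligands had an unadjusted p under 0.05 against 15.5% of genes. Between the knockouts, 0 ligands and 0% of genes passed, with 6 of 35 ligands against 3.4% of genes at an unadjusted p under 0.05. In S1pr1_KO against WT, DESeq2 called 1 ligand beside 3.42% of all genes, and limma-voom called 2 of 35 ligands beside 25.5% of all genes. In C3_KO against WT these tools called 0 ligands beside 0.271 and 0.0163% of genes, and between the knockouts 0 ligands beside 0.408 and 0% of genes. No ligand separated all 4 tumours of one genotype from all 4 of another, where 3.04% of all genes did so in C3_KO against WT, 7.58% in S1pr1_KO against WT and 1.31% between the knockouts. Median log2 fold changes of the 35 ligands were 0.06, 0.08 and 0.11 in the 3 comparisons in that order, beside 0.05, 0.03 and -0.03 over all genes. The ligands above 0 were 21, 19 and 21 of 35, beside 54.2, 51.7 and 46.2% of all genes. The comparisons with WT share the same WT tumours.

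**Figure D2:**
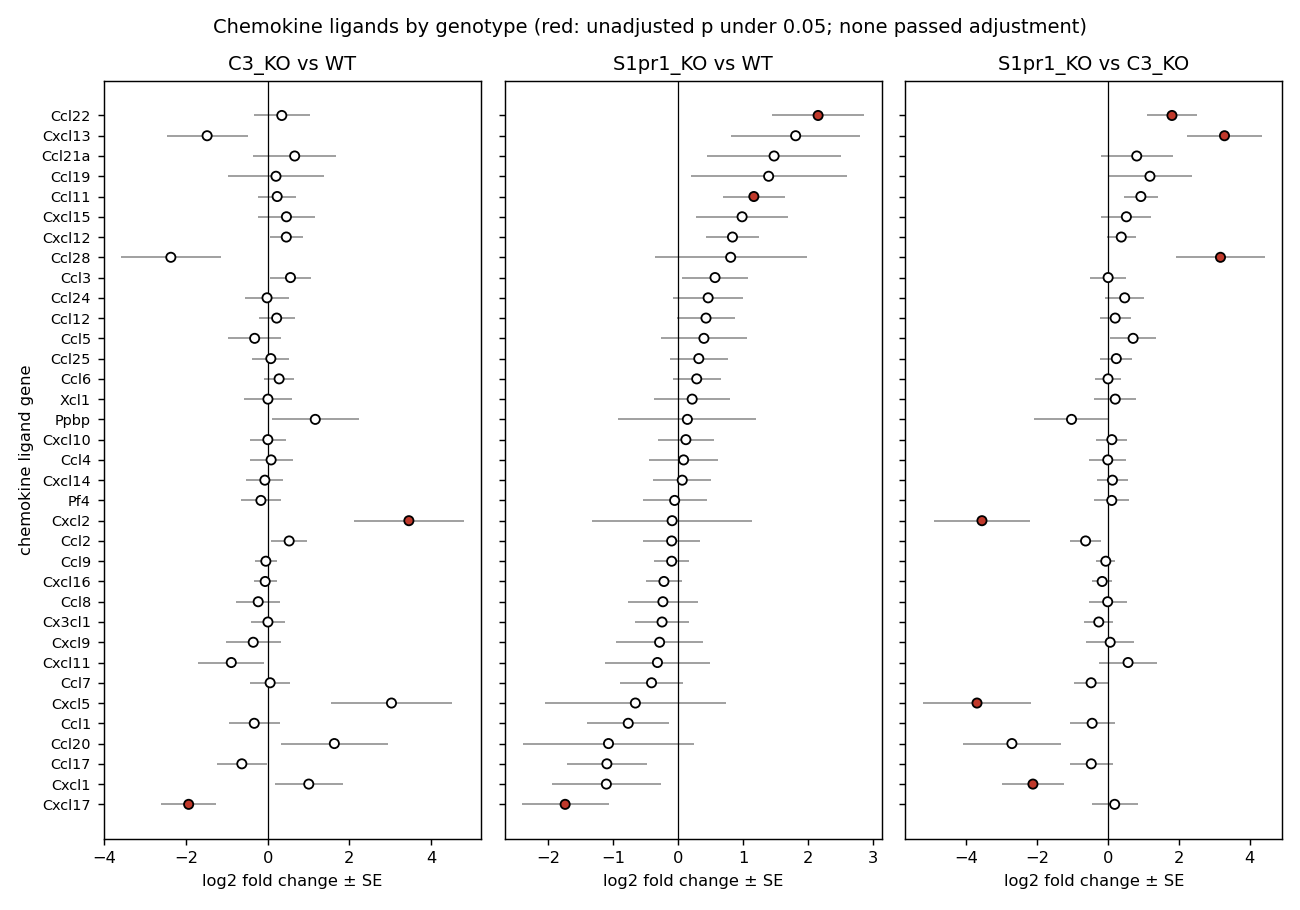
The edgeR log2 fold change of 35 ligands with its SE (horizontal) in the 3 comparisons of genotypes, ordered by S1pr1_KO against WT. Red points have an unadjusted p under 0.05, 2, 3 and 6 genes from left to right, and none passed adjustment over all genes.

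The ligands that attract neutrophils were set apart by a single tumour. Cxcl1, Cxcl2, Cxcl3 and Cxcl5 act on the receptor Cxcr2, and all 4 were highest in C3_KO replicate 3. Cxcl2 stood at 0.261, 0.459, 0.185 and 0.317 CPM in WT, 0.192, 0.0845, 13.02 and 0.168 CPM in C3_KO and 0.182, 0.168, 0.453 and 0.342 CPM in S1pr1_KO. The C3_KO group thus spans both ends, with 1 tumour above every other tumour of the series and the other 3 within or below the WT range. Cxcl2 in C3_KO against WT was at log2 3.46 (SE 1.34, edgeR adjusted p = 0.765). Without C3_KO replicate 3 it was -1.04.

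Cxcl5, also made by epithelial cells, stood at 0.4298, 1.25, 1.14 and 0.5205 CPM in WT, 0.0464, 0.518, 26.7 and 0.147 CPM in C3_KO and 0.164, 0.473, 0.781 and 0.699 CPM in S1pr1_KO. Again C3_KO replicate 3 was the highest tumour, and C3_KO replicates 1 and 4 were the lowest of all 12. The fit in C3_KO against WT gave log2 3.03 (SE 1.49, edgeR adjusted p = 0.765), and -1.82 without C3_KO replicate 3. Cxcl1 stood at 2.57, 7.98, 1.45 and 5.28 CPM in WT, 3.11, 1.59, 27.6 and 2.45 CPM in C3_KO and 1.19, 3.797, 1.54 and 1.49 CPM in S1pr1_KO. Here the WT tumours themselves spread from 1.45 to 7.98 CPM, and the groups overlapped. Cxcl1 was at log2 1.01 (SE 0.84, edgeR adjusted p = 0.783) in C3_KO against WT, at -0.86 without C3_KO replicate 3, and at -1.11 (SE 0.84, edgeR adjusted p = 0.535) in S1pr1_KO against WT.

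Cxcl3 was nearly silent outside that tumour. It had 1389 counts, or 4.40 CPM, in C3_KO replicate 3 and 0.00743 to 0.0399 CPM in the other 11. Ccl20, a ligand of Ccr6 made by epithelium in inflammation, had the same highest tumour, at 1.698 CPM in C3_KO replicate 3 against 0.00541 to 0.247 CPM elsewhere. The promoters of Cxcl1, Cxcl2, Cxcl3 and Ccl20 are the 4 printed first above. Ccl20 was at log2 1.63 (SE 1.31, edgeR adjusted p = 0.779) in C3_KO against WT and at -1.57 without that tumour. Ppbp, a ligand stored in platelets, was also highest there at 0.653 CPM, beside 0.00686 to 0.237 CPM elsewhere. The 4 platelet and megakaryocyte markers had their lowest sum in that tumour, at 33.69 CPM beside 42.75 to 115 CPM in the others. The relation of this sum to Ppbp was not tested. Cxcl15, known from lung epithelium, did not share this highest tumour and ran from 0.219 to 3.04 CPM with its maximum in S1pr1_KO replicate 2.

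Other genes of the neutrophil axis were high in the same tumour. Cxcr2 was 5.25 CPM in C3_KO replicate 3 and 0.07199 to 0.755 CPM in the other tumours. Il1b, the cytokine interleukin-1 beta that induces these ligands, was 36.4 CPM there and 0.856 to 4.295 CPM elsewhere. The 7 neutrophil markers, which include S100a8, S100a9 and Csf3r, summed to 99.9 CPM in C3_KO replicate 3 against 6.13 to 16.2 CPM in WT, at most 15.3 CPM in the rest of C3_KO and 7.97 to 36.9 CPM in S1pr1_KO, and 6 of the 7 were highest in that tumour. Ly6g and Ngp were at 0 in at least 1 tumour. In bulk tissue, more cells of a type and more RNA per cell cannot be told apart. The milk and keratinocyte transcripts given above were high in the same tumour, and their part in the ligand levels was not tested.

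**Figure D3:**
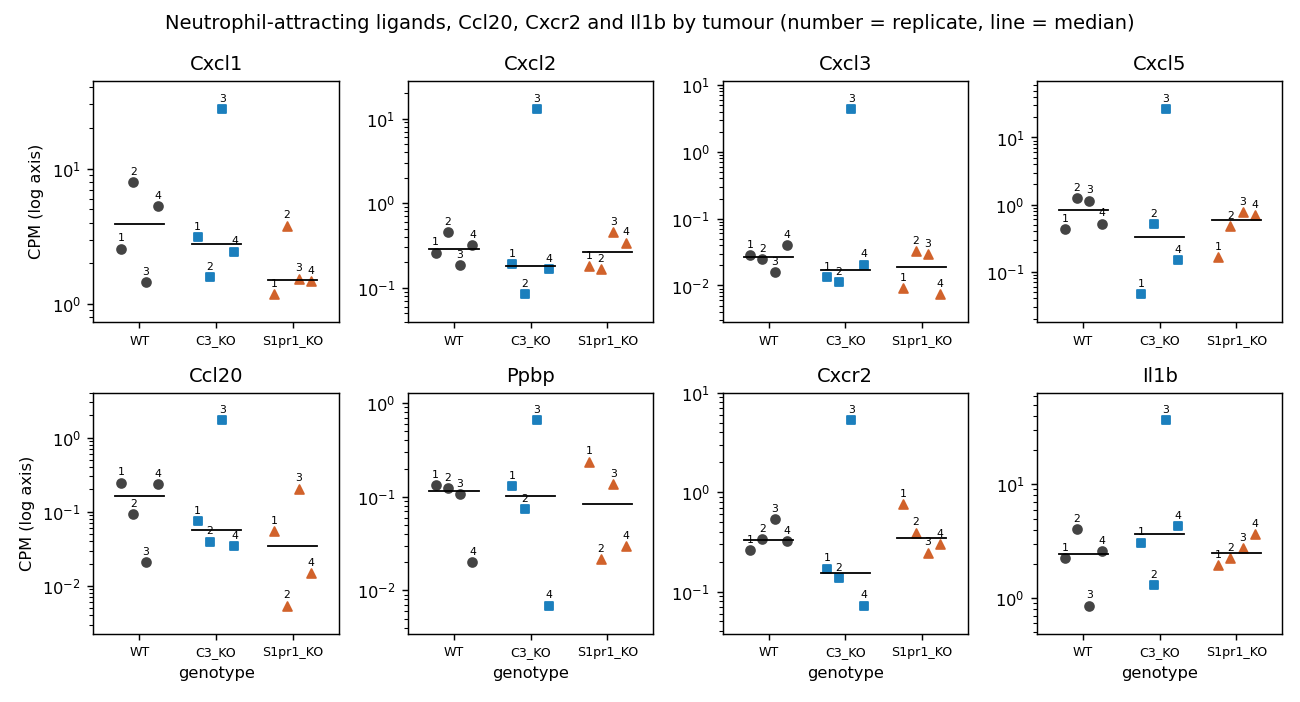
CPM (log axis) of 6 ligands, the receptor Cxcr2 and the cytokine Il1b in each tumour by genotype, with the replicate number at each point and a line at the median. C3_KO replicate 3 is the highest tumour in all 8 panels, while the other 3 C3_KO tumours lie within or below the WT range for Cxcl2, at 0.0845 to 0.192 CPM.

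Ligands that position lymphocytes were each highest in S1pr1_KO replicate 1, followed by S1pr1_KO replicate 2 or, for Ccl19, by C3_KO replicate 1. Cxcl13, which attracts B cells through Cxcr5, stood at 0.356, 2.88, 0.9698 and 0.684 CPM in WT, 0.623, 0.341, 0.139 and 0.648 CPM in C3_KO and 11.6, 3.72, 0.102 and 1.76 CPM in S1pr1_KO. S1pr1_KO held both the highest and the lowest tumour of the series. Cxcl13 was at log2 1.81 (SE 1.00, edgeR adjusted p = 0.392) in S1pr1_KO against WT and at 3.29 (SE 1.06, edgeR adjusted p = 1) in S1pr1_KO against C3_KO. Without S1pr1_KO replicates 1 and 2 these became -0.40 and 1.08. Ccl19, a ligand of Ccr7 made by lymphoid stroma, stood at 0.817, 1.21, 0.687 and 1.56 CPM in WT, 4.303, 0.206, 0.336 and 0.07199 CPM in C3_KO and 8.404, 2.12, 0.395 and 0.301 CPM in S1pr1_KO. In C3_KO, replicate 1 lay above all WT tumours and the other 3 lay below all of them. Ccl19 was at log2 1.39 (SE 1.20, edgeR adjusted p = 0.594) in S1pr1_KO against WT, at -0.13 without S1pr1_KO replicate 1 and at -1.62 without replicates 1 and 2. Ccl19 has pseudogenes in the table, and reads shared with them make its level uncertain.

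Ccl21a, a further ligand of Ccr7, stood at 4.09, 14.1, 2.97 and 5.42 CPM in WT, 27.9, 5.62, 3.19 and 5.44 CPM in C3_KO and 42.3, 27.97, 0.9099 and 2.902 CPM in S1pr1_KO. The 3 highest tumours were S1pr1_KO replicates 1 and 2 and C3_KO replicate 1, and S1pr1_KO replicate 3 was the lowest of all. The fit of Ccl21a gave log2 1.48 (SE 1.03, edgeR adjusted p = 0.499) in S1pr1_KO against WT, 0.73 without S1pr1_KO replicate 1 and -1.81 without replicates 1 and 2. The gene has near-identical copies, of which Ccl21b ran from 0.831 to 31.3 CPM and Ccl21d from 0.644 to 30.6 CPM, so the division of reads among them is uncertain. Cxcl12, the ligand of Cxcr4 made by stroma and endothelium, stood at 34.2, 42.4, 16.9 and 35.6 CPM in WT, 54.4, 51.01, 21.5 and 50.3 CPM in C3_KO and 94.05, 70.1, 38.5 and 27.6 CPM in S1pr1_KO. Of the 4 WT tumours, 3 lay within the S1pr1_KO range, and S1pr1_KO replicates 1 and 2 lay above all other tumours. Cxcl12 was at log2 0.84 (SE 0.41, edgeR adjusted p = 0.344) in S1pr1_KO against WT, and at 0.04 without S1pr1_KO replicates 1 and 2.

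Ccl22, made by dendritic cells and attracting regulatory T cells through Ccr4, had the smallest p of any ligand in S1pr1_KO against WT. It stood at 0.972, 1.43, 0.618 and 0.753 CPM in WT, 2.45, 0.575, 0.748 and 1.02 CPM in C3_KO and 10.6, 3.75, 1.61 and 0.851 CPM in S1pr1_KO. S1pr1_KO replicates 1, 2 and 3 lay above all WT tumours, and replicate 4 lay within them. The mean was 4.202 ± 4.44 CPM in S1pr1_KO and 0.943 ± 0.355 CPM in WT (SD, n = 4), with the fit at log2 2.16 (SE 0.71, edgeR adjusted p = 0.241). DESeq2 gave log2 2.18 with an adjusted p of 0.0367, where adjusted p over all alternatives lay between 0.0367 and 0.999. Without S1pr1_KO replicate 1 the log2 fold change was 1.19, and without replicates 1 and 2 it was 0.38. Ccl17, the other Ccr4 ligand, had a fold change of the opposite sign. Its WT tumours stood at 1.21, 1.32, 0.891 and 0.981 CPM, those of C3_KO at 1.76, 0.273, 0.5005 and 0.302 and those of S1pr1_KO at 0.978, 0.522, 0.313 and 0.242 CPM, for a log2 of -1.10 (SE 0.62, edgeR adjusted p = 0.399) in S1pr1_KO against WT. Within WT and within S1pr1_KO the tumours ranked as they did for Ccl22.

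Ccl11, eotaxin-1, attracts eosinophils through Ccr3 and stood at 2.48, 6.81, 4.05 and 3.43 CPM in WT, 6.84, 4.32, 3.68 and 4.87 CPM in C3_KO and 19.8, 7.99, 3.695 and 6.11 CPM in S1pr1_KO. Only S1pr1_KO replicates 1 and 2 exceeded the highest C3_KO and WT tumours. Ccl11 was at log2 1.17 (SE 0.48, edgeR adjusted p = 0.285) in S1pr1_KO against WT, where limma-voom gave 1.12 with an adjusted p of 0.0339, and at 0.22 without S1pr1_KO replicates 1 and 2. Ccl24, a further eotaxin, was at most 0.878 CPM, in S1pr1_KO replicate 1. Ccl1, a ligand of Ccr8, was low throughout, at 0.03801 to 0.278 CPM, and had a log2 of -0.77 (SE 0.63, edgeR adjusted p = 0.572).

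Markers of several cell types were high in the same tumours. Besides B cell markers, the 8 T cell markers summed to 55.8 and 22.6 CPM in S1pr1_KO replicates 1 and 2 and to 35.1 CPM in C3_KO replicate 1, against 10.7 to 21.1 CPM in WT. The T cell sum of S1pr1_KO replicate 3, at 21.5 CPM, was close to that of replicate 2. Lymphatic endothelial markers, 5 genes with Prox1 and Lyve1, summed to 53.3 and 56.2 CPM in S1pr1_KO replicates 1 and 2 against a WT range of 11.9 to 24.3 CPM and a C3_KO range of 12.6 to 39.5 CPM. Adipocyte markers summed to 1144 and 930.2 CPM there against 28.3 to 302 CPM in WT. Blood endothelial markers, 8 genes, summed to 250 and 192 CPM in these tumours against 65.96 to 138 CPM in WT, and 7 of the 8 were highest in replicate 1. Dendritic cell markers did not share this order. Their sums in S1pr1_KO replicates 1 and 2, at 80.55 and 67.98 CPM, lay inside the WT spread of 42.1 to 129 CPM. The S1pr1_KO tumours spanned 61.3 to 81.9 CPM, with replicate 3 highest. Among C3_KO tumours the lowest sum was 43.73 CPM, and replicate 2 had the highest of the series at 147.8 CPM. Of the 6 single markers, 3 were highest in S1pr1_KO replicate 1. For T cell, B cell, lymphatic endothelial, blood endothelial, adipocyte and dendritic cell markers the sums of the S1pr1_KO and WT tumours overlapped. Blood endothelial sums were 133.5 to 250 CPM over all S1pr1_KO tumours and 120.7 to 172.5 CPM in C3_KO. NK cell markers summed to 11.4 and 9.84 CPM in S1pr1_KO replicates 1 and 2 and to 9.78 CPM in C3_KO replicate 1. Their WT range was 2.75 to 3.83 CPM, and S1pr1_KO replicate 3 had 2.53 CPM. Fibroblast markers summed to 3782 and 3668 CPM in S1pr1_KO replicates 1 and 2, inside the WT range of 1362 to 3933 CPM. The highest fibroblast sum was 4034 CPM, in C3_KO replicate 2. None of these lists had a marker at 0. Their part in the ligand levels was not tested.

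**Figure D4:**
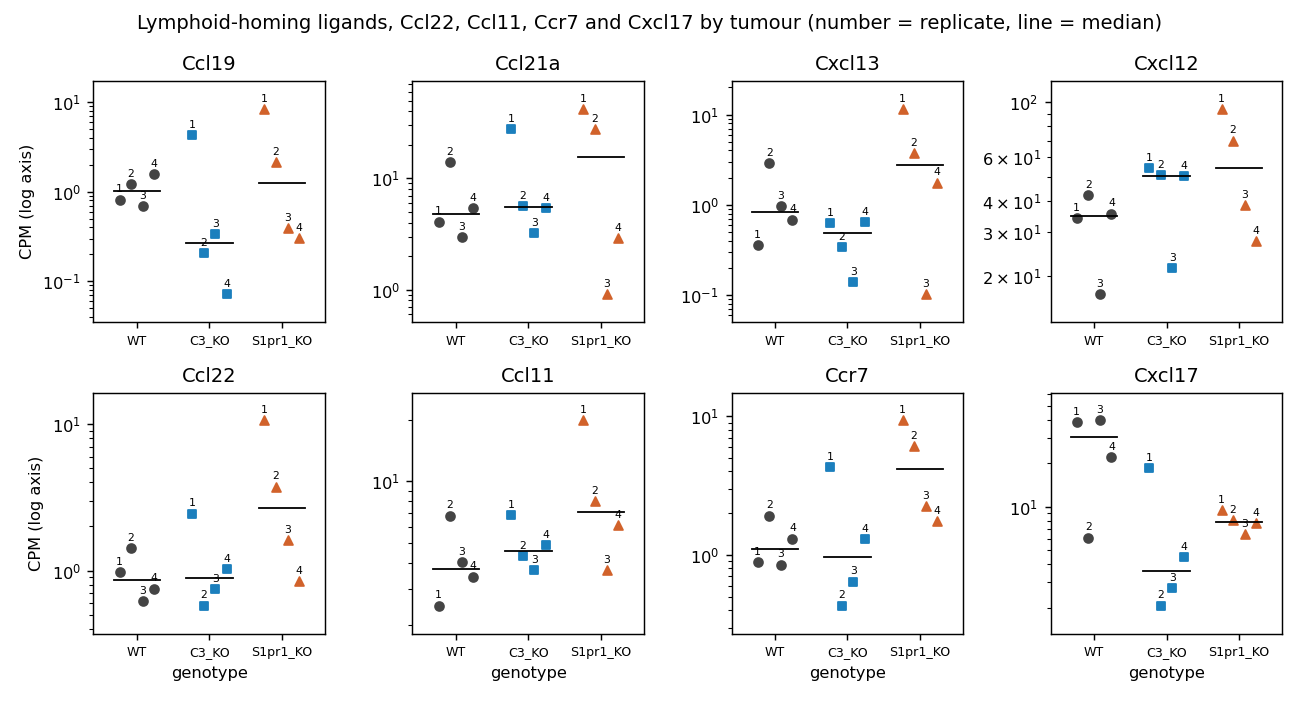
CPM (log axis) of 4 lymphoid-homing ligands, Ccl22, Ccl11, the receptor Ccr7 and Cxcl17 in each tumour by genotype, with the replicate number at each point and a line at the median. S1pr1_KO replicates 1 and 2 are high for the lymphoid ligands while replicate 3 is the lowest tumour for Cxcl13 and Ccl21a, and for Cxcl17 only WT replicate 2 falls among the knockout tumours.

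Cxcl17, a mucosal chemokine of secretory epithelium, was lower in most knockout tumours than in WT. It stood at 38.5, 6.13, 39.4 and 21.9 CPM in WT, 18.4, 2.07, 2.75 and 4.47 CPM in C3_KO and 9.48, 8.06, 6.44 and 7.695 CPM in S1pr1_KO. WT replicate 2 lay below all 4 S1pr1_KO tumours, and the other 3 WT tumours lay above every knockout tumour. Means were 26.5 ± 15.8 CPM in WT, 6.93 ± 7.73 CPM in C3_KO and 7.92 ± 1.25 CPM in S1pr1_KO (SD, n = 4). Log2 fold changes were -1.93 (SE 0.67, edgeR adjusted p = 0.765) in C3_KO against WT and -1.74 (SE 0.67, edgeR adjusted p = 0.266) in S1pr1_KO against WT, where limma-voom gave -1.52 with an adjusted p of 0.0484. Without WT replicate 2 they were -2.26 and -2.07, and without C3_KO replicate 1 the former was -3.10. The comparison of the knockouts gave 0.19 (SE 0.65, edgeR adjusted p = 1). In the same replicate order, salivary gland markers summed to 209, 59.1, 269.5 and 297 CPM in WT, 117, 65.8, 81.2 and 74.7 CPM in C3_KO and 38960, 153, 136 and 1833 CPM in S1pr1_KO. WT replicate 2 and C3_KO replicate 2 were lowest and C3_KO replicate 1 highest of their genotypes for both these sums and Cxcl17. In S1pr1_KO, replicate 1 was highest and replicate 3 lowest for both. Other tumours differed: WT replicate 4 had the highest WT sum but less Cxcl17 than WT replicates 1 and 3. S1pr1_KO replicates 1 and 4, with the highest sums of the series, had less Cxcl17 than WT replicates 1, 3 and 4. The part of the salivary transcripts in the Cxcl17 level was not tested.

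The other mucosal ligands showed no such order. Ccl28, which attracts plasma cells through Ccr10 and is made by salivary and mammary glands, stood at 0.955, 0.637, 6.34 and 11.7 CPM in WT, 0.495, 0.347, 2.63 and 0.319 CPM in C3_KO and 23.1, 2.75, 0.284 and 8.19 CPM in S1pr1_KO. It varied 81.4-fold over the series, and its highest tumour, S1pr1_KO replicate 1, was also the one with the most salivary transcripts. That relation was not tested. Ccl28 was at log2 -2.37 (SE 1.22, edgeR adjusted p = 0.765) in C3_KO against WT and at 3.18 (SE 1.27, edgeR adjusted p = 1) in S1pr1_KO against C3_KO. Ccl25, known from thymus and gut, ran from 1.75 to 8.09 CPM. Cxcl14 stood at 80.8, 91.6, 48.1 and 113 CPM in WT, 139, 80.1, 41.5 and 58.5 CPM in C3_KO and 112, 68.3, 138 and 31.2 CPM in S1pr1_KO, and the genotypes overlapped widely. Its log2 fold changes were -0.07 and 0.06 against WT in C3_KO and S1pr1_KO (edgeR adjusted p = 0.976 and 0.959).

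The membrane-bound ligands were abundant in every tumour. Cx3cl1, which holds cells bearing Cx3cr1, stood at 271, 90.4, 71.5 and 98.8 CPM in WT, 147, 182, 85.9 and 119.7 CPM in C3_KO and 108, 87.6, 176 and 76.1 CPM in S1pr1_KO, with WT replicate 1 highest. Cxcl16, the ligand of Cxcr6, stood at 87.4, 58.3, 38.6 and 43.7 CPM in WT, 50.3, 76.9, 50.1 and 41.4 CPM in C3_KO and 41.3, 40.4, 63.9 and 50.1 CPM in S1pr1_KO, a 2.26-fold range with the genotypes overlapping. Fits for both in either knockout against WT lay between log2 -0.25 and 0.01 (edgeR adjusted p = 0.729 to 0.997).

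None of the ligands that attract monocytes passed the test. Ccl2, the main ligand of Ccr2, stood at 2.22, 3.12, 0.880 and 1.103 CPM in WT, 2.31, 1.81, 4.41 and 2.05 CPM in C3_KO and 2.202, 1.53, 1.29 and 1.81 CPM in S1pr1_KO. C3_KO replicate 3 was its highest tumour, by a far smaller margin than for Cxcl2. Its log2 fold changes were 0.53 (SE 0.44, edgeR adjusted p = 0.784) in C3_KO and -0.10 (SE 0.44, edgeR adjusted p = 0.93) in S1pr1_KO against WT. Ccl8 stood at 7.30, 37.7, 8.35 and 11.8 CPM in WT, 22.5, 13.8, 5.47 and 13.8 CPM in C3_KO and 21.2, 15.2, 7.92 and 11.02 CPM in S1pr1_KO, with WT replicate 2 above all others. The related Ccl7 ran from 0.764 to 3.85 CPM and Ccl12 from 0.672 to 2.497 CPM.

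Among the macrophage inflammatory ligands, Ccl5, made by T cells and NK cells, stood at 10.2, 7.43, 6.05 and 10.2 CPM in WT, 19.1, 3.34, 1.26 and 3.53 CPM in C3_KO and 19.4, 9.25, 10.4 and 5.58 CPM in S1pr1_KO. S1pr1_KO replicate 1 and C3_KO replicate 1 were the highest tumours, and the other 3 C3_KO tumours lay below all WT and S1pr1_KO tumours. The fit gave log2 -0.32 (SE 0.66, edgeR adjusted p = 0.915) in C3_KO against WT, -1.65 without C3_KO replicate 1 and 0.03 without C3_KO replicate 3. Ccl6 stood at 14.8, 31.3, 11.1 and 12.1 CPM in WT, 20.5, 27.6, 14.1 and 21.9 CPM in C3_KO and 33.3, 21.1, 13.9 and 16.1 CPM in S1pr1_KO. Ccl9 was the steadiest member, at 9.22 to 18.8 CPM, a 2.03-fold range. Ccl3 and Ccl4 ran from 0.214 to 1.42 CPM and 0.365 to 1.73 CPM. Pf4, platelet factor 4, stood at 3.02, 5.23, 0.922 and 1.53 CPM in WT, 2.62, 2.89, 2.47 and 1.58 CPM in C3_KO and 3.64, 3.04, 2.303 and 1.32 CPM in S1pr1_KO, and its groups overlapped throughout.

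The interferon-inducible ligands Cxcl9, Cxcl10 and Cxcl11 draw activated T cells through Cxcr3. Cxcl9 stood at 3.37, 13.2, 3.12 and 3.48 CPM in WT, 11.1, 1.902, 1.15 and 3.98 CPM in C3_KO and 7.08, 4.71, 2.49 and 4.74 CPM in S1pr1_KO. WT replicate 2 and C3_KO replicate 1 were the highest tumours and C3_KO replicate 3 the lowest. Cxcl10 stood at 3.69, 3.61, 1.32 and 2.36 CPM in WT, 4.96, 1.496, 1.58 and 2.98 CPM in C3_KO and 3.56, 2.32, 2.73 and 3.29 CPM in S1pr1_KO, a narrower spread with C3_KO replicate 1 highest. Both were near 0 in the fits, with Cxcl9 at log2 -0.35 and -0.29 and Cxcl10 at 0.01 and 0.12 in C3_KO and S1pr1_KO against WT (edgeR adjusted p = 0.859 to 0.998). Without WT replicate 2, Cxcl9 was at 0.45 and 0.51. Cxcl11 was at most 0.3002 CPM and at log2 -0.89 (SE 0.81, edgeR adjusted p = 0.798) in C3_KO against WT. Xcl1, lymphotactin of T and NK cells, stood at 1.51, 0.680, 0.661 and 0.901 CPM in WT, 1.99, 0.268, 0.348 and 1.16 CPM in C3_KO and 1.68, 0.978, 1.02 and 0.676 CPM in S1pr1_KO.

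Ligands were then paired with a main receptor, giving 17 pairs correlated on log2 CPM across the 12 tumours. Xcl1 and its receptor Xcr1, a marker of cross-presenting dendritic cells, had Pearson's r = 0.79 (permutation p = 0.00177, adjusted p = 0.0283) and Spearman's rho = 0.85 (permutation p = 0.00071, adjusted p = 0.00604). Cxcl9 and Cxcr3 had r = 0.73 (permutation p = 0.00797, adjusted p = 0.0339) and rho = 0.89 (permutation p = 0.00029, adjusted p = 0.00493). Without the 2 tumours farthest from the median of the ligand, r was 0.79 and 0.73 for these pairs over 10 tumours, with adjusted permutation p of 0.0623 and 0.0677. Cxcl10 and Cxcr3 had r = 0.77 and rho = 0.64 (adjusted permutation p = 0.0283 and 0.129; permutation p = 0.00333 and 0.0304), and r = 0.75 without 2 tumours. Ccl19 and Ccr7, the receptor that brings T cells and dendritic cells to lymph nodes, had r = 0.73 and rho = 0.71 (adjusted permutation p = 0.0339 and 0.0674; permutation p = 0.00693 and 0.0119), and r = 0.72 without 2 tumours.

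In the remaining 13 pairs neither measure passed adjustment. Cxcl1 and Cxcr2 had r = 0.59 and rho = 0.11 (permutation p = 0.059 and 0.73; adjusted p = 0.134 and 0.851). Without C3_KO replicate 3 and WT replicate 2 their r was -0.22, so the relation rests on those samples. Cxcl16 and Cxcr6 had the lowest r, at -0.55, with rho = -0.46 (permutation p = 0.0631 and 0.135; adjusted p = 0.134 and 0.287), and r = -0.24 without 2 tumours. Ligand and receptor were read from the same libraries and share their composition. Genotypes of 4 tumours are too small for a correlation within each.

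**Figure D5:**
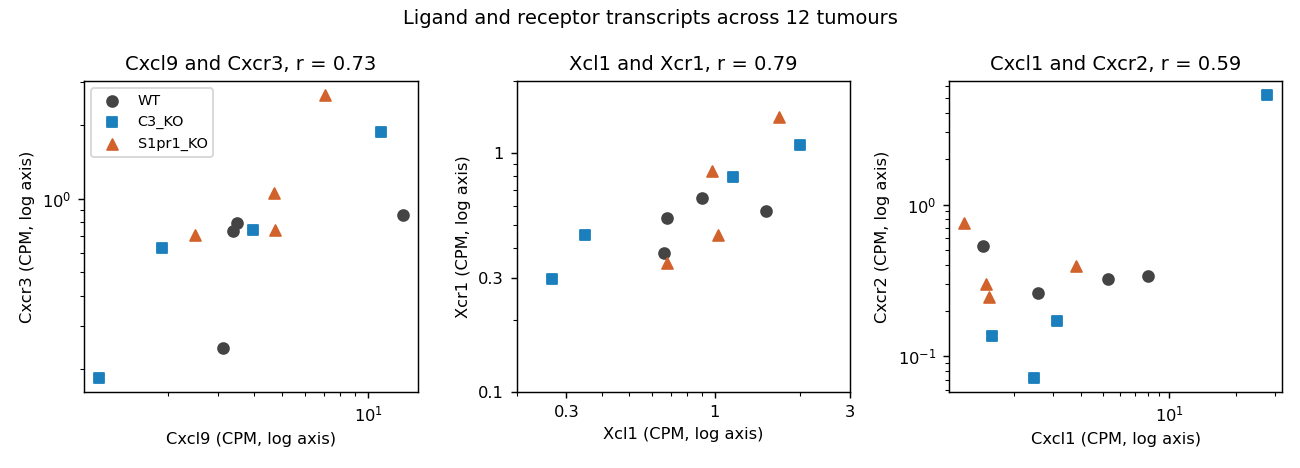
CPM of a receptor (vertical, log axis) against CPM of its ligand (horizontal, log axis) in the 12 tumours, coloured by genotype, with Pearson's r of log2 CPM in each title. Xcl1 with Xcr1 (r = 0.79) and Cxcl9 with Cxcr3 (r = 0.73) spread along the whole range, whereas for Cxcl1 with Cxcr2 a single C3_KO tumour lies far from the rest.

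The wider chemokine system was read from a list of 48 further genes, of which 45 were tested: other ligands, conventional and atypical receptors, proteases that act on chemokines, upstream cytokines and transcription factors. None had an adjusted p under 0.05 in any comparison of the edgeR fit on all tumours, beside 0% of all genes. In S1pr1_KO against WT, 37 of the 45 lay above 0 with a median log2 of 0.49, beside 51.7% and a median of 0.03 over all genes. Of the 45, 5 (11.1%) had an unadjusted p under 0.05, beside 15.5% of all genes. They included the receptors Ccr6 of B cells and some T cells at log2 3.07 (SE 0.93, edgeR adjusted p = 0.229), Ccr7 at 1.96 (SE 0.72, edgeR adjusted p = 0.255), and Ccr10 at 1.46, and the interferon-gamma receptor chain Ifngr2 at -0.70. Ccr6 was 1.197, 0.887, 0.0468 and 0.130 CPM in the S1pr1_KO tumours and 0.06201 to 0.0756 CPM in WT, and Ccr7 was 9.32, 6.06, 2.24 and 1.76 CPM beside 0.854 to 1.93 CPM. In S1pr1_KO replicates 1 and 2 Ccr6, Ccr7 and the lymphoid ligands were high together, and without both tumours Ccr6 was at log2 0.40 and Ccr7 at 0.68. Leaving out S1pr1_KO replicate 3 alone gave Ccr6 at log2 3.5 (edgeR adjusted p = 0.0454) and Ccr7 at 2.24 (edgeR adjusted p = 0.0821). Of the refits without 1 tumour, that one called the most genes over the whole table. In C3_KO against WT, 33 of 45 lay above 0 with a median log2 of 0.29, beside 54.2% and a median of 0.05 over all genes. Only Il1b, 1 of 45 (2.22%, beside 6.23% of all genes), had an unadjusted p under 0.05, at log2 2.21 (SE 0.85, edgeR adjusted p = 0.765), and without C3_KO replicate 3 it was at 0.24. Tnf, a cytokine that induces many of these ligands, was the 1 of 45 listed genes whose S1pr1_KO tumours did not overlap WT, beside 7.58% of all genes, at 2.71, 3.11, 4.77 and 4.62 against 2.36, 1.97, 2.35 and 2.63 CPM, with log2 0.71 (SE 0.39, edgeR adjusted p = 0.386). Nfkb1 was the 1 of 45 that did not overlap between C3_KO and WT, beside 3.04% of all genes, at 85.8 to 94.8 against 72.9 to 83.2 CPM, with log2 0.23 (SE 0.16, edgeR adjusted p = 0.766). Both genes were singled out after their values were seen.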

How the data were processed

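The authors deposited raw counts per gene for 12 tumours as whole numbers (56860 genes), and FPKM values, which matched counts scaled by gene length and column total within a relative 0.001 for all 682320 entries. Per the submitters' processing notes, StringTie and build GRCm39 (mm39) were named, with no role or version. The aligner, counter and strand setting were not given in the sources used here, so near-identical, overlapping and antisense genes are uncertain. Among counts of 1 to 50, 60.2 to 64.4% were even. Replicates were numbered in accession order. Pairs of libraries had correlations across genes of 0.945 to 0.989.

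Counts were tested with edgeR 4.0.16 (R 4.3.3) by the robust quasi-likelihood F-test on all 12 libraries after filterByExpr and TMM scaling, leaving 30660 genes and 9 residual degrees of freedom. Benjamini-Hochberg adjustment ran over all of these genes, with a threshold of 0.05. Each SE is the log2 fold change over the root of F. Log2 CPM for correlations used a prior count of 2, and permutation p-values (100000, two-sided) were adjusted over 17 pairs. The values of 1 pair and of 1 further gene of the chemokine system are not reported here. Alternatives used RLE size factors, library totals, no filter, a CPM of at least 1 in 4 libraries, DESeq2 1.42.0, limma 3.58.1 (voom with quality weights, and log2(FPKM + 1)), 2 genotypes, and fewer libraries. The edgeR script was tested on simulated counts. Values per tumour are given for up to 4 ligands in each direction of smallest p per comparison, the 5 of highest median FPKM and 1 to 2 of each role. The members and lists were chosen with earlier results of these data known.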

Additional observations from a re-analysis of the deposited data

Results flagged for a closer look

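Within each genotype of 4 tumours, the distance of the highest or lowest tumour to its nearest neighbour was divided by the whole range of log2 CPM and compared with Dixon's 95% critical value. Of 108 groups (36 ligands in 3 genotypes), 7 exceeded it, where chance gives about 1 in 20 groups, or 5.4.

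In C3_KO, replicate 3 stood apart for 3 ligands. Its Cxcl2 was 13.02 CPM against 0.0845 to 0.192 CPM (ratio 0.842) in the other 3 tumours of the genotype, and its Cxcl3 was 4.40 CPM against 0.0113 to 0.0206 CPM (ratio 0.921). The same tumour was low for Cxcl12, at 21.5 CPM against 50.3 to 54.4 CPM (ratio 0.916). In WT, replicate 2 was high for Cxcl9 at 13.2 CPM against 3.12 to 3.48 CPM (ratio 0.924) and for the eotaxin Ccl24 at 0.466 CPM against 0.217 to 0.227 CPM (ratio 0.94). WT replicate 3 was low for Ccl3 at 0.338 CPM against 0.723 to 0.815 CPM (ratio 0.863), and WT replicate 4 for Ppbp at 0.0199 CPM against 0.106 to 0.134 CPM (ratio 0.867). No group of S1pr1_KO exceeded the critical value.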

How the results depend on the processing

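Each comparison was refitted under 22 alternatives and 1 more chosen after seeing the data. The tumours left out in groups were among those with extreme marker sums. S1pr1_KO replicates 1 and 2 were the highest of their genotype for Cxcl13, Ccl19, Ccl21a, Cxcl12, Ccl22 and Ccl11. C3_KO replicate 3 was the highest of its genotype for Cxcl1, Cxcl2, Cxcl5 and Ccl20. Leaving these tumours out was therefore bound to lower the level of their group, so only the size of each shift is informative. Ligands called stayed at 0 except in S1pr1_KO against WT, with 1 by DESeq2 (Ccl22) and 2 by limma-voom (Ccl11 and Cxcl17). Genes called over the whole table varied more. In C3_KO against WT they numbered 0 in the edgeR fit, 82 with DESeq2, 5 with limma-voom, 1 on log2(FPKM + 1), and 0 to 8 when 1 tumour was left out, 3 without C3_KO replicate 4 and 8 without S1pr1_KO replicate 3. In S1pr1_KO against WT they numbered 0 in the edgeR fit, 27 with library totals only, 10 with no low count filter, 23 with the stricter filter, 955 with DESeq2, 7828 with limma-voom, 33 on log2(FPKM + 1), 68 with only the 2 genotypes in the fit and 0 to 1330 with 1 tumour left out, the most without S1pr1_KO replicate 3. That refit called no ligand, but the receptor Ccr6 passed in it at log2 3.5 (edgeR adjusted p = 0.0454). Without C3_KO replicate 1, 3 or 4 there were 9, 2 and 32, and without S1pr1_KO replicate 2 there was 1. Between the knockouts they numbered 0, with 114 by DESeq2 and 0 to 3 with 1 tumour left out: 2, 1 and 3 without C3_KO replicates 1, 3 and 4. The cause of these shifts was not tested. Of 539 refits of the 24 named ligand fold changes, 505 kept their direction and side of the threshold, 3 passed it and 31 turned. In C3_KO against WT, limma-voom turned Cxcl5 to -1.21, Cxcl11 to 0.23 and Ccl20 to -0.13. Leaving out C3_KO replicate 3 turned Cxcl1, Cxcl2, Cxcl5 and Ccl20 to -0.86, -1.04, -1.82 and -1.57, and they were -0.83, -1.01, -1.79 and -1.55 when S1pr1_KO replicates 1 and 4 were left out with it, and -0.86, -1.04, -1.82 and -1.57 when S1pr1_KO replicates 1 and 2 were. With 1 tumour left out, the highest log2 values in C3_KO against WT were 1.48 for Cxcl1, 3.86 for Cxcl2, 3.44 for Cxcl5 and 2.02 for Ccl20, and the lowest between the knockouts were -3.96 for Cxcl2, -4.10 for Cxcl5 and -4.25 for Ccl20. In S1pr1_KO against WT, Cxcl13 was -0.40 without S1pr1_KO replicates 1 and 2, with or without C3_KO replicate 3. Between the knockouts, limma-voom turned Cxcl5 to 0.50. Without C3_KO replicate 3, Cxcl2 was 0.95, Cxcl5 1.16 and Ccl20 0.49. Without S1pr1_KO replicates 1 and 4 as well, Cxcl1, Cxcl2, Cxcl5 and Ccl20 were 0.20, 1.10, 1.43 and 1.12. Ccl11 was -0.01 without S1pr1_KO replicates 1 and 2, and leaving out those with C3_KO replicate 3 gave Ccl22 at -0.14, Ccl11 at -0.12, Cxcl2 at 1.42, Cxcl5 at 1.64 and Ccl20 at 1.14. Of 17 ligand and receptor pairs, 4 passed by Pearson's r, 2 when deviations from genotype means were used (Xcl1 with Xcr1, which was among the 4, and Ccl21a with Ccr7, which was not) and 0 over the 10 tumours left without the farthest 2, where Cxcl1 with Cxcr2 turned to -0.22. No paired analysis was possible because replicate numbers follow accession order and the labels pair no tumours. Depth limits the lowest ligands: Cxcl3, Ccl20 and Ppbp fell to 2 counts in a tumour.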

Other observations

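S1pr1_KO replicate 1 was the highest tumour for 10 of the 36 ligands, C3_KO replicate 3 for 9, WT replicate 2 for 7 and C3_KO replicate 1 for 5. Ranges of at least 10-fold between the highest and lowest tumour were found for 16 ligands, and in 9 the highest tumour was at least 2-fold above the next. The same counts were not made over all genes, so they do not set the ligands apart from other genes. Among family members outside the 36, the skin ligand Ccl27a ran from 4.98 to 15.4 CPM and Ccl26 had no counts in any tumour. Ackr3, a scavenger of Cxcl12, ran from 7.505 to 22.8 CPM, and Ackr4, a scavenger of Ccl19 and Ccl21, from 3.83 to 9.63 CPM. Dpp4, a protease that trims chemokines, was 38.9, 25.01, 8.56 and 23.1 CPM in S1pr1_KO and 5.51, 6.59, 10.04 and 22.3 CPM in WT, at log2 1.11 (SE 0.56, edgeR adjusted p = 0.359).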
